A study of Mus musculus with 2 samples.

Results

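The inhibitors of cyclin-dependent kinases (CDKs) and the retinoblastoma proteins restrain entry into the cell cycle. The genes described here are Cdkn1a, Cdkn1b and Cdkn1c of the Cip/Kip inhibitors, Cdkn2a, Cdkn2c and Cdkn2d of the INK4 inhibitors, and Rb1, Rbl1 and Rbl2 of the retinoblastoma family. They were taken by gene name from the annotation deposited with the arrays, by a rule that uses no measured value although earlier results of these data were known, and make up 9 of 24203 genes and 18 of 44170 transcript rows. Each row is a summary of 3 probes to 1 transcript record, and 6 of the 9 genes have more than 1 row.

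RNA came from long-term haematopoietic stem cells (LT-HSCs), the marrow cells that sustain blood formation, sorted from C57BL/6 mice aged 8 weeks. The groups were cells of mice lacking cia-cGAS, named in the labels as a circular RNA, and cells of wild-type mice. The 2 arrays, 1 for the knockout and 1 for the wild type, carry single-colour Cy3 signal. Without replicates nothing could be tested: differences are descriptions of these 2 samples, and differences between animals, sorts or arrays cannot be told apart from that between genotypes. The sources used here give neither the knockout allele, nor the sort markers, nor whether animals were pooled, and loss of the circular RNA was not checked on these arrays.

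In G1, CDK4 and CDK6 with D-type cyclins, and then CDK2 with E-type cyclins, phosphorylate the retinoblastoma proteins. Unphosphorylated RB1 (pRB) holds the activating E2F factors, whereas RBL1 (p107) and RBL2 (p130) pair mainly with the repressive E2Fs and, with the MuvB proteins, form the DREAM complex that silences cell cycle genes in resting cells. INK4 proteins block CDK4 and CDK6, and Cip/Kip proteins bind cyclin-CDK complexes more broadly, CDK2 above all. In stem and progenitor cells of mouse marrow, p57 (Cdkn1c), p27 (Cdkn1b), p21 (Cdkn1a) and p18 (Cdkn2c) have all been described as brakes on division.

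All values are log2 intensities unless stated, and differences are knockout minus wild type on that scale. As a detection floor served the 95th percentile of 1025 rows for chemosensory receptors (olfactory, vomeronasal, taste), which was 8.97 in the knockout and 9.11 in the wild type. A row above the floor on 1 array only is given as at least the fold between its bright value and the other array's floor, and no fold is given for rows below both. Counts past a fold use this bound where a row passed 1 floor. Rows of different genes were not set against each other in level, since each probe has its own brightness. Among 2892 genes with 2 or more rows above both floors, differences of rows of 1 gene varied with a pooled SD of 0.37, which is a spread between probe sets and not between animals.

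The retinoblastoma family was divided, with Rb1 lower, Rbl1 higher and Rbl2 at the same level in the knockout. Of the inhibitors, Cdkn1b was lower and the brightest row of Cdkn1a higher, while all rows of the INK4 genes lay below both floors. No member row above a floor reached 2-fold once values under a floor were replaced by it. Of the 8 member rows above a floor, 0 were at least 2-fold higher and 0 lower, against 6.14% higher and 3.82% lower (9.96% either way) among the 17022 rows above a floor on the whole array. For genes, each read from its brightest row, the members likewise gave 0 of 6 either way, against 9.6% of all genes above a floor. At 1.5-fold, 2 of the 6 member genes above a floor were higher (Cdkn1a and Rbl1) and 2 were lower (Rb1 and Cdkn1b). The same fold was passed upward by 11.6% and downward by 12.3% of all 10855 genes above a floor, 23.9% together. Among rows, 4 of 8 member rows passed 1.5-fold in either direction, against 24.6% of all rows. Over all genes above a floor the median difference was -0.02, with the middle 50% of genes between -0.36 and 0.33.

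**Figure D1:**
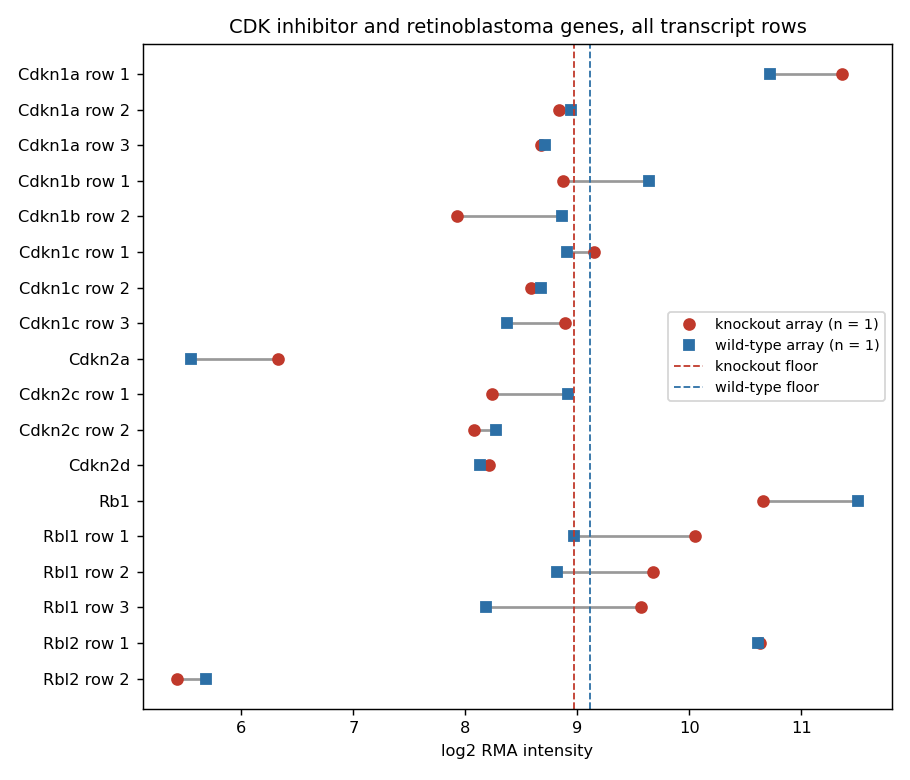
The log2 RMA intensity of each of the 18 member rows on the knockout array (red circles) and the wild-type array (blue squares), 1 array each, with the floor of each array as a dashed line. Rows of a gene are numbered from the brightest; the 3 rows of Rbl1 all cross from below the wild-type floor to above the knockout floor, and 10 rows lie below both floors.

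The promoters of 3 members are shown first because these genes stand for the different outcomes within the set: Rbl1, itself a textbook E2F target, was higher in the knockout, Cdkn1b lower, and Rbl2 equal on both arrays. Each sequence is the 250 bases before the start site, from RefSeq (GRCm38.p6), read 5′ to 3′ on the strand of the gene, and capitals mark motif matches. The windows are chr2:157204535-157204784 on the minus strand for Rbl1, chr6:134920151-134920400 on the plus strand for Cdkn1b and chr8:91069807-91070056 on the plus strand for Rbl2.
Rbl1: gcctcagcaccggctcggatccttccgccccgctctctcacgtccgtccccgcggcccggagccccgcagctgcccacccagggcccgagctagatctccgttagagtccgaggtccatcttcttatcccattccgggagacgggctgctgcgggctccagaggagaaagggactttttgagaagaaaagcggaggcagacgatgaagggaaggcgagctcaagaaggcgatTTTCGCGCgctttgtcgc
Cdkn1b: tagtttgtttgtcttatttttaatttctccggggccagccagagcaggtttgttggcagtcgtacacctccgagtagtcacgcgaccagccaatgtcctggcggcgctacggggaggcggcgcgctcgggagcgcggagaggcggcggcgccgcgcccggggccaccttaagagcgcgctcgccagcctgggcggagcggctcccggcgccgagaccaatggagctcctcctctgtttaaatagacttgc
Rbl2: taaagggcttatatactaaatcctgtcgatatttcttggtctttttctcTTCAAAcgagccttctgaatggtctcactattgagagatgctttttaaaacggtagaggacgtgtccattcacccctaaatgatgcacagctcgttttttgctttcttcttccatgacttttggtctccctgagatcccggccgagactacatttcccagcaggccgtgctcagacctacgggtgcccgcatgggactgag
The motifs searched, on both strands, were the E2F site (TTTCCCGC, TTTGGCGC, TTTCGCGC or TTTGCCGC), the cell cycle homology region CHR (TTTGAA), which the MuvB protein LIN54 binds, and an interferon response core (GAAA, any 2 bases, then GAAA). RefSeq windows were found for 7 of the 9 members, 10 windows in all since some genes have 2 start sites.

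The Rbl1 window held 1 E2F match, TTTCGCGC, from base -18 to base -11 before the start site. The other E2F match was in 1 of the 2 windows of Cdkn2a, where TTTCCCGC lies from base -99 to base -92. Among all 32851 RefSeq windows of the same length, 1.86% held an E2F match. The Rbl2 window held a CHR match on the opposite strand (TTCAAA, base -201 to base -196), a motif found in 5252 of the 32851 windows. The interferon response core was in 0 of the 10 member windows and in 2.98% of all windows. A match is only a run of letters, and binding was not measured here.

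Rb1, the founding pocket protein and tumour suppressor, had 1 row, placed by the files on chromosome 14 from 73595308 to 73725598 (mouse MM9 assembly, counting of the first base not stated). It read 10.66 in the knockout, against 11.51 in the wild type, and both values lay well above the floors. As intensities these were 1617 in the knockout and 2916 in the wild type. The knockout was 1.80-fold lower (difference -0.85), and 7.77% of all genes above a floor had a difference this low or lower. With a single row of 3 probes, the difference could not be checked against another row of the gene.

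Rbl1 encodes p107, the pocket protein that is itself made in cycling cells. Its brightest row, annotated as a splice variant p68 and spanning chromosome 2 from 157000721 to 157030255, read 10.05 in the knockout and 8.97 in the wild type. The second row (156971629 to 157030237) read 9.68 in the knockout and 8.82 in the wild type. The third (156992713 to 157030255) read 9.57 in the knockout and 8.18 in the wild type. All 3 rows were above the floor in the knockout and below it in the wild type, so they entered the count of detected rows through the array on which they were bright.

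Against the wild-type floor, the 3 Rbl1 rows were at least 1.92-fold, 1.48-fold and 1.38-fold higher in the knockout. The measured differences were 1.07, 0.86 and 1.39, but the wild-type values behind them lie in the range of receptor genes. The rows overlap on the genome and may share target sequence, so they are not independent readings.

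Rbl2 encodes p130, the pocket protein that predominates in resting cells. The row for the whole gene (chromosome 8 from 93594007 to 93647743) read 10.63 in the knockout and 10.62 in the wild type, a difference of 0.02. The other row, a shorter record from 93594007 to 93603222, read 5.42 in the knockout and 5.69 in the wild type, both below the floors. The detected Rbl2 row therefore differed by less than the spread among rows of a gene, and Rb1, also above both floors, by more. That spread is between probe sets, so it cannot show whether either difference exceeds those between animals, sorts or arrays.

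**Figure D2:**
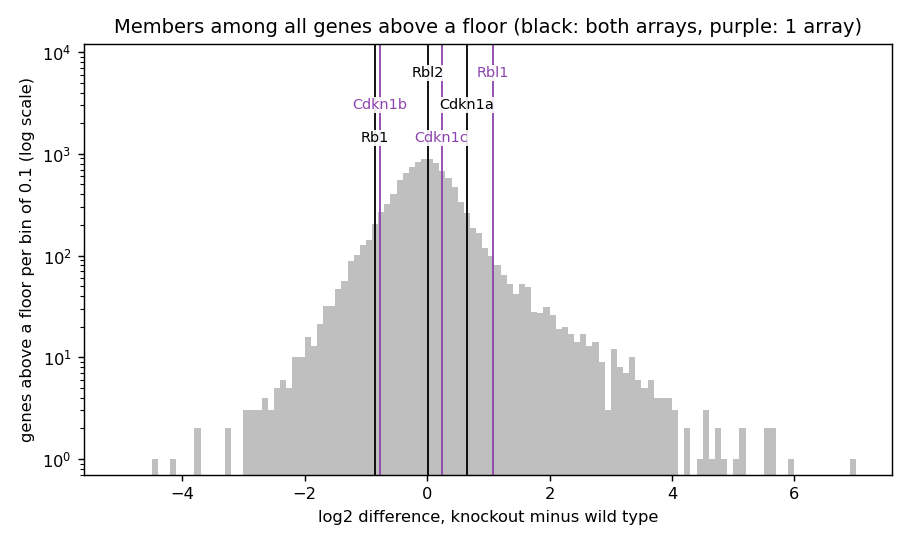
Log2 difference between knockout and wild type for all 10855 genes above a floor (grey, counts on a log scale, bins of 0.1), with the 6 members above a floor as lines; Cdkn2a, Cdkn2c and Cdkn2d are not drawn because they lay below both floors. Rb1 and Cdkn1b sit on the lower flank (-0.85 and -0.77), Rbl1 on the upper flank (1.07), and none of the lines reaches the long upper tail.

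Among the Cip/Kip inhibitors, Cdkn1b and Cdkn1a differed in opposite directions. Cdkn1b encodes p27, which is degraded through SKP2 as cells enter S phase. Its brighter row (chromosome 6 from 134870447 to 134874327) read 8.87 in the knockout and 9.64 in the wild type, with intensities of 468 in the knockout and 798 in the wild type. It passed the floor in the wild type alone and was lower in the knockout by at least 1.60-fold. The other row (134870434 to 134875213) read 7.92 in the knockout and 8.86 in the wild type, below both floors, so no fold is given.

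The lower reading of Cdkn1b therefore rests on 1 row, and on the wild-type array alone being above the floor. The p27 protein is known to be controlled largely through protein stability, and protein was not measured here.

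Cdkn1a encodes p21, the inhibitor that p53 induces after DNA damage. The brightest row, for transcript variant 2 (chromosome 17 from 29227930 to 29237667), read 11.36 in the knockout and 10.72 in the wild type, which was 1.57-fold higher. As intensities these were 2635 in the knockout and 1684 in the wild type. The other rows lay below both floors: 8.84 in the knockout and 8.94 in the wild type for the row from 29235151 to 29237667, and 8.68 in the knockout and 8.71 in the wild type for the row from 29230763 to 29236509. Their differences were -0.10 and -0.04, so the higher reading in the knockout rests on 1 of 3 rows, and the mean of the 3 rows differed by 0.17.

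Cdkn1c encodes p57, an imprinted inhibitor that marks resting stem cells in mouse marrow. Its brightest row (chromosome 7 from 150644244 to 150646901) read 9.15 in the knockout and 8.91 in the wild type, at least 1.03-fold higher in the knockout. The row from 150644613 to 150646892 read 8.59 in the knockout and 8.68 in the wild type, and the row from 150646185 to 150646901 read 8.89 in the knockout and 8.37 in the wild type. The 3 differences of 0.24, -0.09 and 0.51 had mixed signs, and 5 of the 6 values lay below their floor.

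The INK4 genes could not be compared at the sensitivity of these arrays, since all of their 4 rows lay below both floors. Cdkn2a, whose locus encodes p16 and p19ARF, read 6.33 in the knockout and 5.55 in the wild type (chromosome 4 from 88920444 to 88940443), and the row does not tell those products apart in its annotation. Cdkn2c, which encodes p18, had rows at 8.23 in the knockout and 8.91 in the wild type (109333480 to 109339262), and at 8.08 in the knockout and 8.28 in the wild type (109333480 to 109337977). Cdkn2d, which encodes the INK4 protein p19, read 8.22 in the knockout and 8.13 in the wild type (chromosome 9 from 21092907 to 21095463). Such readings do not show that the genes were off, only that they could not be separated from rows of receptor genes.

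Of the 2 further inhibitor genes listed, Cdkn2b (p15), the neighbour of Cdkn2a, also lay below both floors at 8.15 in the knockout and 7.92 in the wild type. Cdkn3, which encodes a phosphatase acting on CDKs, read 10.55 in the knockout and 10.46 in the wild type in its brightest of 4 rows, whose differences ran from -0.13 to 0.99.

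Genes of the list of G1 cyclins, kinases and their regulators were mostly lower in the knockout. The list is broader than the cyclins and kinases that the inhibitors bind. Of 15 genes of the G1 list measured, 14 were above a floor, 11 of them with a negative difference, and the median of the 14 was -0.39. Each gene was read from its brightest row, and other rows of some of the 11 were positive, up to 0.96. At 2-fold, 0 were higher and 1 was lower, against 5.54% and 4.06% of all genes above a floor. Ccne2, an E-type cyclin that activates CDK2, differed by -1.01 (9.78 in the knockout, 10.79 in the wild type). Ccne1, the other E-type cyclin, differed by -0.73 (10.78 in the knockout, 11.51 in the wild type). Cdk2 itself differed by -0.80 (9.25 in the knockout, 10.05 in the wild type).

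The D-type cyclins and their kinases showed smaller or opposite differences. Ccnd2 read 13.06 in the knockout and 12.74 in the wild type, a difference of 0.32. Ccnd3 differed by -0.36 and Cdk4 by -0.20. Ccnd1 (9.21 in the knockout, 8.53 in the wild type) and Cdk6 (9.12 in the knockout, 8.69 in the wild type) were detected in the knockout alone, at least 1.07-fold and 1.01-fold higher.

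In the list of E2F factors and their partners, 7 of the 8 genes above a floor were lower in the knockout, with a median of -0.57. Only 6 of the 8 were above the knockout floor, and with values under a floor set to it the median was -0.51. At 2-fold, 2 were lower and 0 higher, against 4.06% and 5.54% of all genes above a floor. E2f4, the repressive E2F that binds RBL1 and RBL2, was 5.07-fold lower (10.08 in the knockout, 12.42 in the wild type), and its other row differed by -1.48. Tfdp2, a DNA-binding partner of E2Fs, was 3.92-fold lower, with differences from -2.31 to -0.79 among its 6 rows.

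Of the activating E2Fs, E2f2 differed by -0.38 between arrays that both detected it. E2f3 passed the floor in the wild type alone and was at least 1.77-fold lower, with its 3 rows between -1.09 and -0.67. E2f1 read 8.66 in the knockout and 9.22 in the wild type, at least 1.19-fold lower. E2f5, the other E2F that pairs with RBL2, was below both floors.

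Genes that E2F switches on for S phase were lower in the knockout almost throughout, apart from Rbl1. Of 40 listed genes, 33 were above a floor, and their median was -0.62. At 2-fold, 10 were lower and 0 higher, against 4.06% and 5.54% of all genes above a floor. Only 29 of the 33 were above the knockout floor, and genes above the wild-type floor alone could only be negative. With values under a floor set to it, the median was -0.59. Without Rbl1, which the list contains, 31 of 32 had a negative difference and the highest was 0.17, each gene read from its brightest row. Other rows of some of these genes were positive, up to 0.51. Dut (dUTPase), Uhrf1 (maintenance of DNA methylation) and Fen1 (flap endonuclease) were 6.42-fold, 3.96-fold and 3.22-fold lower. Rbl1, at 1.07, was the only listed gene above a floor with a difference over 0.17. Low S phase genes on these arrays were known before the list was drawn up, so the list is not independent evidence of its direction. Markers of erythroid and B lineage cells were also lower (medians -0.88 and -2.51, or -0.70 and -1.90 with values under a floor set to it), and their part in the values of the cycle genes was not tested.

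The genes of G2 and mitosis that DREAM holds down in resting cells were lower to a smaller degree. Of 17 above a floor, 15 had a negative difference, and the median was -0.46. With values under a floor set to it, the median was -0.43. Each gene was read from its brightest row, and other rows of some of the 15 were positive, up to 0.97. At least 2-fold lower were 2 and higher 0, against 4.06% and 5.54% of all genes above a floor. The kinase gene Nek2 was 2.57-fold lower, although its rows ranged from -1.41 to -0.14, and the centromere gene Cenpf was 2.01-fold lower. Of the MuvB genes, only 3 of 6 measured were above a floor, with a median of 0.13 and 0 past 2-fold.

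**Figure D3:**
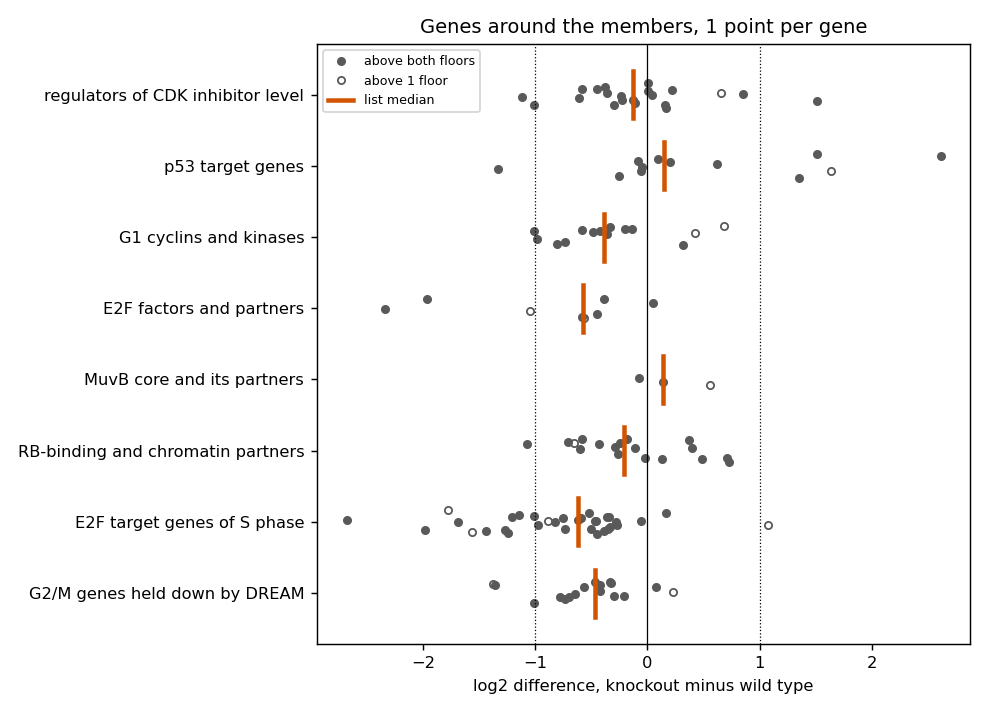
Log2 difference between knockout and wild type for genes of 8 lists around the members, 1 point per gene above a floor (filled: above both floors, open: above 1 floor), with the list median as an orange bar and 2-fold as dotted lines. The E2F factors and S phase targets lie mostly left of 0, and the open point at 1.07 in the S phase list is Rbl1.

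Other proteins that bind RB1 were spread around 0. Of 18 above a floor in the list of RB-binding and chromatin partners, 12 had a negative difference, and the median was -0.21. At 2-fold, 1 was lower and 0 higher, against 4.06% and 5.54% of all genes above a floor. The 2-fold lower gene, Rbbp5, rests on 1 of 2 rows, since its rows differed by -1.07 and 0.69.

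Regulators of inhibitor level gave no common direction, with a median of -0.13 over 21 genes above a floor. Past 2-fold, 1 was higher and 2 were lower, against 5.54% and 4.06% of all genes above a floor. Trp53 differed by 0.16, and Mdm2, the p53 target that limits p53, was 2.85-fold higher (11.21 in the knockout, 9.70 in the wild type). Skp2, the ligase subunit that targets p27 for destruction, differed by -0.59, with its 3 rows from -0.66 to 0.37. Dtl, which directs p21 to destruction in S phase, differed by -1.12, with its 3 rows from -1.30 to -0.22. Foxo3, an activator of Cdkn1b, was 2.02-fold lower in its brightest row, and its 5 rows ran from -1.09 to 0.40.

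The p53 targets listed beside Cdkn1a were likewise mixed. Of 12 above a floor, 3 were at least 2-fold higher and 1 lower, against 5.54% and 4.06% of all genes above a floor. The higher genes were the death receptor gene Fas (6.12-fold), Mdm2 (2.85-fold) and the kinase gene Plk2 (2.54-fold). Plk2 rests on the brighter of its 2 rows, which differed by 0.34 and 1.35, and their mean of 0.85 is under 2-fold. With the rows of each gene averaged, 3 genes of the list were at least 2-fold higher, Plk2 not among them, and 0 lower. One, the nuclease gene Aen, was 2.52-fold lower in its brightest row, with rows from -1.33 to 0.44. The list median was 0.14, but -0.05 with a lower floor, the median over the rows of an array, and -0.07 with no floor.

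Rbl1 lies beside Samhd1, and both were higher in the knockout. Samhd1 encodes a dNTP hydrolase that restricts viruses, and in the RefSeq table both genes run on the minus strand, with Samhd1 downstream of Rbl1. In the coordinates of the files the gap between them is 10.7 kb. The brightest Samhd1 row read 15.06 in the knockout and 13.77 in the wild type, which was 2.44-fold higher. The 5 Samhd1 rows differed from 0.51 to 3.05, and 4 of them were at least 2-fold higher.

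Within the Rbl1 gene the files place 2 rows of the annotated gene Gm14277, which differed by -1.51 and -0.39, so rows inside and beside Rbl1 did not all share its direction. Around all 9 members, 67 rows that are not members lay within 60 kb, 8 of them without a gene ID and 41 above a floor. Of these 41, 4 were at least 2-fold higher, all Samhd1 rows, and 2 lower, against 6.14% and 3.82% of all rows above a floor. The 2 that were at least 2-fold lower were a Gm14277 row and the row of Kri1, a gene of ribosome assembly next to Cdkn2d (-1.20). These neighbours were examined after the values of Rbl1 were known.

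**Figure D4:**
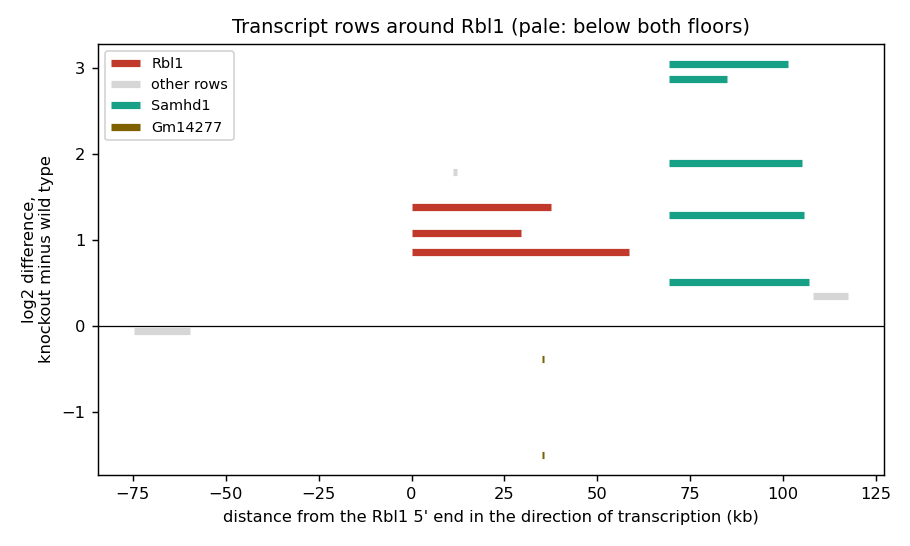
Log2 difference between knockout and wild type of each transcript row around Rbl1, drawn as a bar over its annotated span, with distance in kb from the 5′ end of Rbl1 in the direction of transcription. The 3 Rbl1 rows (red, 0.86 to 1.39) and the 5 Samhd1 rows downstream (green, 0.51 to 3.05) lie above 0, and both Gm14277 rows lie below it.

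Markers of other marrow cells were present and differed between the arrays. The LT-HSC markers Kit and Ly6a (Sca-1) were above both floors, whereas Procr and Slamf1 were below both. Of 16 stem and progenitor cell markers in this list, Cd34 (-0.51) among them, 10 were above a floor. Of these, 5 had a positive and 5 a negative difference, with a median of 0.07. At 2-fold, 0 were higher and 1 lower, against 5.54% and 4.06% of all genes above a floor. The lower one, Tal1, was at least 2.20-fold lower, with rows from -1.42 to -0.52. B lineage markers had 9 of 13 genes at least 2-fold lower and 1 higher, against 4.06% and 5.54% of all genes above a floor. The median of the B lineage markers was -2.51. Only 7 of the 13 were above the knockout floor, and with values under a floor set to it the median was -1.90. Their summed intensity was 13058 in the knockout and 29630 in the wild type. Erythroid markers were lower in 15 of 15 genes above a floor, with a median of -0.88 (-0.70 with values set to the floor). Only 12 of the 15 were above the knockout floor, and those above the wild-type floor alone could only be negative. The measured erythroid markers below both floors differed by 0.49, 0.20 and -1.52. The summed intensity of erythroid markers was 97713 in the knockout against 145520 in the wild type.

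Megakaryocyte markers had a median of -1.11 over 5 genes (-0.87 with values set to the floor) and T and NK markers -0.10 over 7. Neutrophil markers were higher in 16 of 17 genes, with a median of 0.48 and a summed intensity of 316235 in the knockout against 225227 in the wild type. Monocyte and macrophage markers had a median of 0.50 over 12 genes, and mast cell and basophil markers 1.61 over 5, or 0.81 with values set to the floor. In a bulk sample, fewer cells of a type and less RNA per cell cannot be told apart, and the part of these cell types in the values of Rb1, Rbl1, Cdkn1a, Cdkn1b and the cycle genes was not tested.

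**Figure D5:**
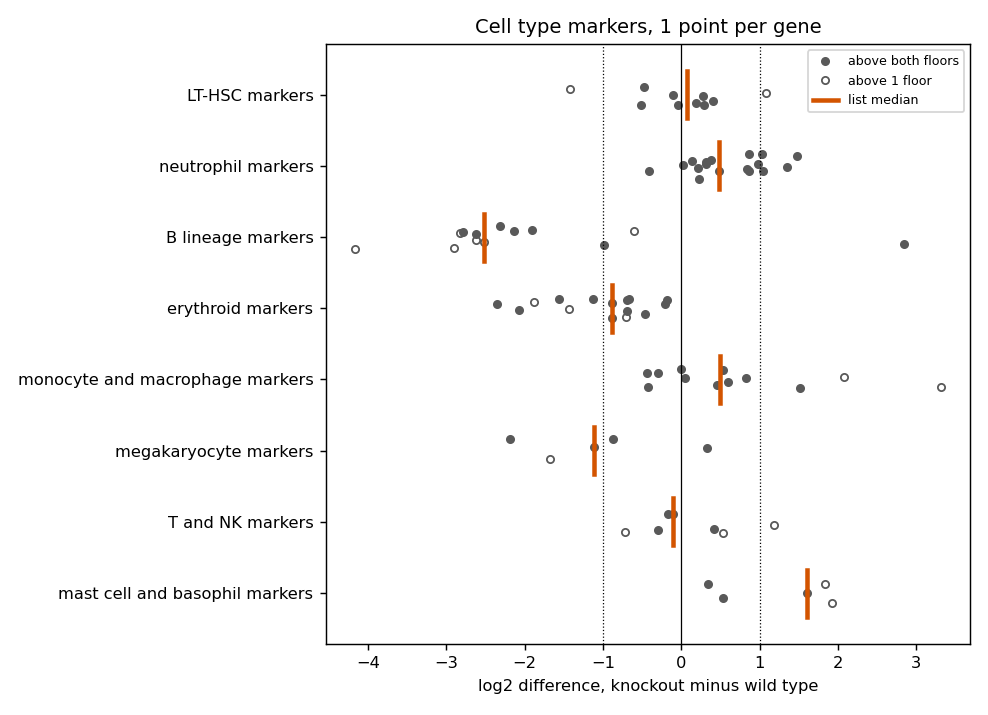
Log2 difference between knockout and wild type for marker genes of 8 cell types, 1 point per gene above a floor (filled: above both floors, open: above 1 floor), with the list median as an orange bar and 2-fold as dotted lines. B lineage, erythroid and megakaryocyte markers have medians below 0 (-2.51, -0.88 and -1.11, from values as measured, also under a floor), and neutrophil, monocyte and mast cell markers above it.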

How the data were processed

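Per the labels' protocols, total RNA was primed with oligo dT, and double-stranded cDNA was labelled with Cy3 for NimbleGen arrays. The authors deposited intensities on a linear scale, an RMA (robust multi-array average) summary per transcript row. RMA is named in the submitters' processing notes without a version. Whether both arrays were normalized jointly is not stated there. As generally defined, RMA equalises array distributions, so differences are relative to other genes. Per the file headers, 44155 rows hold 3 probes. A row of 5000 random control probes read 36.9 on both arrays and was left out. The series-wide table held the same intensities (largest log2 difference 1.28e-06).

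The log2 of each intensity was taken with no further normalization. Genes were grouped by gene ID, with symbols updated from a RefSeq table (GRCm38.p6), and the row with the highest mean stood for each gene. The deposited standard errors were not used, since their scale is not stated. Counts, bounds and loess centring were tested on simulated data (Python 3.11.15, pandas 2.3.3, statsmodels 0.14.6). Precision is limited by having 1 array per group. The members and gene lists were chosen with earlier results of these data known. Named genes are all members with all rows, direct partners (D- and E-type cyclins, Cdk2, Cdk4, Cdk6, E2f1 to E2f5, Skp2, Trp53, Mdm2), and up to 3 genes of each list furthest past 2-fold in each direction. Cdkn2b and Cdkn3 are the whole list of other inhibitors. Kit, Ly6a, Procr, Slamf1, Tal1, Cd34, Kri1, Samhd1, Gm14277 and the genes of the closing observations were added with their values in view. The alternatives tried were other floors, folds of 1.5 and 3, averaged rows, loess centring (span 0.3), values set to the floor, means over members and the series-wide table.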

Additional observations from a re-analysis of the deposited data

How the results depend on the processing

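No paired analysis was possible because each group has 1 array, and no replicate could be left out. A result is taken as moved here where it shifted by more than the 0.37 SD among rows of a gene, or a count by more than 1.5 times. The detection floor decides the count for Rbl1: with the lower floor (the median over the rows of an array), and with no floor, 2 member rows were at least 2-fold higher, both of Rbl1, in place of 0. These are 2 of 16 and 2 of 18 member rows, against 5.85% and 6.61% of all rows under the same settings. With the stricter floor, the 99th percentile of the receptor rows, 3 member genes stayed above a floor (Cdkn1a, Rb1 and Rbl2), with a median of 0.02. Rbl1, Cdkn1b and Cdkn1c then lay below both floors, so their differences depend on the floor chosen. At a fold of 1.5, 2 member rows were higher and 2 lower, in place of 0 and 0. With the rows of a gene averaged, the median over the members above a floor was -0.34 over 4 genes, in place of 0.13 over 6, and the difference of Cdkn1a was 0.17 in place of 0.65. Fewer genes pass the floor when dim rows are averaged in. Rb1 differed by -0.83 with loess centring, in place of -0.85, which does not count as moved, and the other alternatives could not change its single row. The difference of Rbl1 lay between 1.07 and 1.11 and that of Cdkn1b between -0.86 and -0.75 under averaged rows and loess centring, both with values under a floor. The 1.5-fold row counts compare with 12.7% higher and 11.9% lower among all rows.

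Averaging rows left 0 genes at least 2-fold lower in the lists of inhibitor regulators, p53 targets, G1 cyclins and RB-binding partners, and 1 in the G2/M list. Loess centring left 1 among regulators, 0 among G1 cyclins and 1 in the G2/M list. The stricter floor left 1 among regulators and 0 among p53 targets and G1 cyclins. With the lower floor or none, the MuvB median was -0.25 over 6 genes in place of 0.13 over 3, and the S phase list had 1 gene at least 2-fold higher in place of 0, Rbl1. With no floor, 2 regulators in place of 1 were higher. The S phase median stayed between -0.75 and -0.56 and that of the E2F factors between -0.80 and -0.51 under the alternatives run for them, with 7 to 12 and 2 to 3 genes at least 2-fold lower.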

Other observations

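One further row, which carries no gene ID in the files, is described there as a product of Rbl1 and lies within the gene (chromosome 2 from 157017883 to 157018998, MM9). It was left out of the members because the rule needs a gene name, and it was noticed after its values were seen. It read 7.80 in the knockout and 6.02 in the wild type, both below the floors, so no fold is given.

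Lockd, a long noncoding RNA gene 3.90 kb from Cdkn1b in the coordinates of the files, had 1 of 2 rows above a floor, in the wild type alone, and that row was lower in the knockout by at least 1.22-fold. Lpar6, which the files place inside Rb1, had rows between -0.34 and 0.53, all 4 above a floor, whereas Rb1 differed by -0.85. Bmi1, a Polycomb gene known to repress Cdkn2a, read 9.49 in the knockout and 8.84 in the wild type, at least 1.31-fold higher in its brightest row, but its 3 rows ran from -0.49 to 0.65. The genes in this paragraph were chosen after their values were seen.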
